A study of Mus musculus with 14 samples.

Results

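The genes described here carry or answer the insulin and insulin-like growth factor (IGF) signal. They are the receptors Insr and Igf1r, the receptor adaptors Irs1 and Irs2, the transcription factors Foxo1 and Foxo3, the PI3 kinase inhibitor Pik3ip1, and 3 genes of the downstream response, Cited2, Ddit4 and Eif4ebp1. These 10 genes were taken by symbol, and all 10 were present among the 32960 symbols of the sorted-cell table and the 20858 symbols shared by the accumbens tables. The study compared male C57BL/6 mice that received morphine sulfate or saline (mock) intraperitoneally; the labels used here give neither the dose nor the interval before collection. Oligodendrocytes, the myelin-forming glia, were immunostained and sorted from whole brains of mice aged 70 days, giving 3 mock and 3 morphine libraries whose RNA was amplified before sequencing. The nucleus accumbens, a ventral striatal region of the reward circuit, was profiled in 4 mock and 4 morphine pools by Drop-seq, which captures single cells in droplets and counts transcripts by unique molecular identifiers (UMIs). Each pool held 2 mice, aged 37 to 45 days in pools 1 and 2 of both groups and 78 to 82 days in pools 3 and 4.

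Insulin and IGF1 bind receptor tyrosine kinases that phosphorylate IRS adaptors, which recruit PI3 kinase and switch on Akt. Akt keeps FoxO factors out of the nucleus and releases the brakes on the kinase complex mTORC1, so that protein synthesis runs when the signal is strong and FoxO-driven genes are transcribed when it is weak. In oligodendrocytes the pathway is known for its part in survival and in myelin formation.

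Promoter sequences are printed for 4 genes picked by their morphine response in sorted cells: both adaptors, since only one of them fell, and the 2 genes with the largest rises among those tested. Any link between a motif and these differences was not tested. The stretches come from RefSeq on build GRCm38.p6 and end just before the RefSeq transcription start. Those of Cited2 and Ddit4 end earlier, at the GENCODE gene start, which lies further upstream. Capitals mark the E-box CACGTG and the insulin response sequence CAAAACA, the letters of an element bound by FoxO factors, on either strand. Irs1 (chr1:82291440-82291689, minus strand), Irs2 (chr8:11008930-11009179, minus strand), Cited2 (chr10:17722978-17723217, plus strand) and Ddit4 (chr10:59951835-59952020, minus strand) read as follows, 5′ to 3′.
Irs1: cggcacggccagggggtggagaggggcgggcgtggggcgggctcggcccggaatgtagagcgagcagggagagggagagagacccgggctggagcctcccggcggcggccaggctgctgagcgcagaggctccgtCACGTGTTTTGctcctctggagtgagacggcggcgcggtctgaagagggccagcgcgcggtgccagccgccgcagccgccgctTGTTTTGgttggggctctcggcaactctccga
Irs2: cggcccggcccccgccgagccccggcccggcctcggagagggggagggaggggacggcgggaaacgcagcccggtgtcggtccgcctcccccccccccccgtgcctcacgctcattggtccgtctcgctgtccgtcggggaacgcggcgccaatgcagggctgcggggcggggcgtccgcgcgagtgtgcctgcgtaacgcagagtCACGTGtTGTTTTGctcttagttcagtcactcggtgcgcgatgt
Cited2: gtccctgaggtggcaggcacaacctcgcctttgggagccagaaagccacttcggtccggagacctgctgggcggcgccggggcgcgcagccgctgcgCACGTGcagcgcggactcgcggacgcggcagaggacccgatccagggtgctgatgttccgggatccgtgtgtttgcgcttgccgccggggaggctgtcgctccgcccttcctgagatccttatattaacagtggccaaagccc
Ddit4: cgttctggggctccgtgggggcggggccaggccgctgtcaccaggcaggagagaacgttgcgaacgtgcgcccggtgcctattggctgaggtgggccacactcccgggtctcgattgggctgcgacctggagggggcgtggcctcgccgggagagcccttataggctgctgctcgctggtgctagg

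Positions are those of the first base of a match, counted back from the RefSeq start and not from the end of the printed stretch. Irs1 held CAAAACA at -111 and -32 and CACGTG at -115, the last overlapping the first CAAAACA match. Irs2 held CAAAACA at -37 close to CACGTG at -44. Cited2 held CACGTG at -153, with 240 of its 250 searched bases printed. Both strands were also searched for the FoxO site GTAAACA, for AGAACA, a hexamer of the glucocorticoid receptor, for the full glucocorticoid response element and for the cyclic AMP response element TGACGTCA. None of the motifs was in the 186 bases of Ddit4. Of the 8 promoters matched for these genes, 3 held a motif and 5 held none. Over 32851 promoters and 250 bases each, CAAAACA was found in 5.56% and CACGTG in 6.02%. The shares were 3.17% for GTAAACA, 16.1% for AGAACA, 1.55% for TGACGTCA and 0.00913% for the full glucocorticoid element. A match describes letters only.

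In sorted oligodendrocytes 3 of the genes rose with morphine and 3 fell, of 9 tested. Ddit4, which encodes the stress-induced mTORC1 brake REDD1, rose 4.08-fold. Cited2, a transcriptional co-regulator that responds to FoxO factors, rose 2.14-fold, and Foxo3 rose 1.31-fold. Irs1, Pik3ip1 and Igf1r fell, to between 0.704 and 0.848 of the mock level. Across all 15750 genes tested, 14.8% passed the same threshold of adjusted p under 0.05 in edgeR's quasi-likelihood test (8.1% rose and 6.68% fell). The median log2 fold change of the 9 tested genes was 0.058, against -0.021 for all genes.

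**Figure D1:**
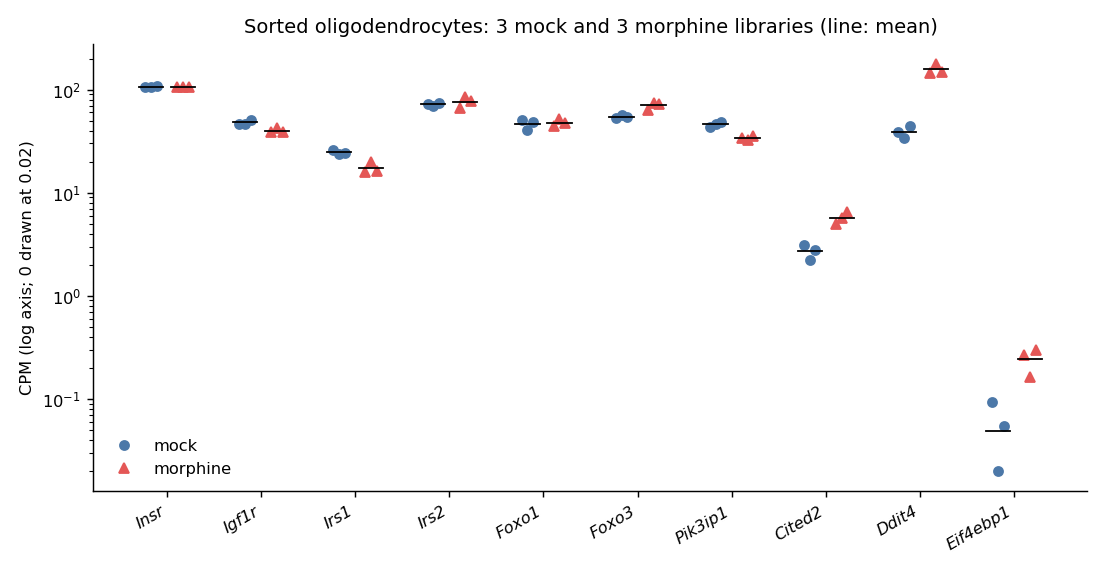
Levels in sorted oligodendrocytes in CPM (log axis) for each of 3 mock and 3 morphine libraries, with group means as lines. The Ddit4 morphine libraries lie between 144.9 and 175.8 CPM, above mock at 33.62 to 44.59 CPM.

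Levels in the sorted cells are given in CPM, the reads of a gene scaled to the library's total of reads in genes, and libraries are numbered as the table's columns are. For the accumbens, CPM are summed UMIs scaled to the pool's total over the genes tested times edgeR's TMM scaling factor. The similarity of profiles used CPM without that factor. Insr, the insulin receptor, lay at 105.8, 105.3 and 108.7 CPM in mock libraries 1 to 3 and at 106.3, 106.5 and 106.7 CPM in morphine libraries 1 to 3. The groups overlapped, and the log2 difference of 0.024 had a 95% confidence interval from -0.09 to 0.14 (edgeR adjusted p = 0.854). Igf1r, the IGF1 receptor, lay at 46.61, 46.5 and 51.03 CPM in mock and at 39.06, 42.28 and 38.88 CPM in morphine. Every morphine library was below every mock library, and Igf1r fell by 0.24 on the log2 scale (SE 0.0704, edgeR adjusted p = 0.0252). That call was lost with DESeq2 (adjusted p = 0.0538), without a filter on low counts (edgeR adjusted p = 0.0949), and on leaving out any library but mock 2, where edgeR's adjusted p reached at most 0.171 (0.0798 without mock 1, 0.138 without mock 3, 0.109, 0.06 and 0.171 without morphine 1, 2 and 3). In the authors' deposited table the Igf1r adjusted p was 0.165.

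Of the adaptors that couple both receptors to PI3 kinase, Irs1 was at 26.11, 23.88 and 24.46 CPM in mock and at 15.92, 19.77 and 16.07 CPM in morphine. The groups did not overlap, and Irs1 fell by 0.51 on the log2 scale (SE 0.0972, edgeR adjusted p = 0.000664). In bulk libraries, fewer cells of a type and less RNA per cell cannot be told apart. Irs2 was at 72.76, 68.72 and 73.49 CPM in mock and at 66.41, 84.5 and 77.89 CPM in morphine. Its groups overlapped, with morphine 1 the lowest of all 6 libraries and morphine 2 the highest. The log2 difference of 0.11 had an interval from -0.04 to 0.27 (edgeR adjusted p = 0.383). Per kilobase of exon, mock Irs2 stood at 11.3 ± 0.406 CPM per kb and Irs1 at 2.71 ± 0.126 (SD, n = 3).

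The FoxO factors are the transcription factors that Akt holds back. Foxo1 was at 50.32, 40.7 and 48.76 CPM in mock and at 44.22, 51.46 and 47.83 CPM in morphine. These ranges overlapped (log2 difference 0.058, interval -0.11 to 0.23, edgeR adjusted p = 0.737). Foxo3 was at 53.24, 56.44 and 53.9 CPM in mock and at 63.88, 73.91 and 72.69 CPM in morphine. All morphine libraries were above all mock libraries, and Foxo3 rose by 0.39 on the log2 scale (SE 0.0673, edgeR adjusted p = 0.000212). Mock levels per kilobase were 7.20 ± 0.224 CPM per kb for Foxo3 and 5.38 ± 0.596 for Foxo1 (SD, n = 3).

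Pik3ip1, a membrane protein that restrains PI3 kinase, was at 43.31, 45.9 and 48.54 CPM in mock and at 33.73, 32.17 and 35.77 CPM in morphine. The groups did not overlap, and Pik3ip1 fell by 0.41 on the log2 scale (SE 0.0729, edgeR adjusted p = 0.000291). Cited2 was scarce, at 3.107, 2.202 and 2.76 CPM in mock and at 4.955, 5.626 and 6.565 CPM in morphine. All morphine libraries were higher, by 1.10 on the log2 scale (SE 0.189, edgeR adjusted p = 0.000209).

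Ddit4 was at 38.77, 33.62 and 44.59 CPM in mock and at 144.9, 175.8 and 149.3 CPM in morphine. The lowest morphine library was above the highest mock library, with a log2 fold change of 2.03 (SE 0.0865, edgeR adjusted p = 3.4e-13). At 22.2 ± 3.13 CPM per kb in mock and 89.3 ± 9.53 in morphine (SD, n = 3), it was the most abundant of the 10 genes per length in both groups. Eif4ebp1, a translation repressor that mTORC1 inactivates, had 2, 0 and 1 reads in mock and 5, 3 and 7 in morphine and was too low to be tested. The 6 genes called and Eif4ebp1 were those whose groups did not overlap. Of all genes tested, 29.1% had groups that did not overlap, counted on CPM scaled with edgeR's TMM factors. Exons of Irs1, Irs2, Foxo1 and Pik3ip1 overlap another annotated gene on the other strand (Gm9747, 9530052E02Rik, Gm20402 and Gm12592), and reads of such pairs cannot be told apart without strand.

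Between 14989118 and 23456702 reads fell in genes in each sorted library, and 69.5% to 74.3% of all its reads were assigned to no gene. The 12 oligodendrocyte markers had summed levels of 66390 to 69570 CPM (mock) and 70040 to 71130 CPM (morphine), against 730.6 to 849.7 and 725.4 to 781.2 CPM for the 12 astrocyte markers. Of the oligodendrocyte markers 2 rose and 3 fell, and of 9 newly formed oligodendrocyte markers 2 rose and 2 fell, where 14.8% of all genes passed. Of 12 microglia markers 0 rose and 2 fell. The 10 ependymal markers had sums of 614.8 to 690.5 CPM (mock) and 252 to 704.6 CPM (morphine), most of it Ttr. The 12 endothelial markers had summed levels of 267.4 to 299 CPM (mock) and 299.8 to 368.4 CPM (morphine), with 1 risen and 4 fallen. The one that rose was Slc2a1, a glucose transporter that made up most of the sum; without it, left out after its values were seen, the sums turned to 74.2 to 77.5 CPM (mock) and 48.7 to 68.1 CPM (morphine). The 8 neuron markers had summed levels of 156.5 to 188 CPM (mock) and 222.9 to 250.9 CPM (morphine). Without Tubb3, a neuronal tubulin left out after its values were seen, these sums were 130 to 149.5 and 114.3 to 129.2 CPM. No marker on these lists was at 0 in every library. Their part in the differences above was not tested.

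The other genes of the pathway, a list of 77, were 69 tested, of which 13 rose and 11 fell; 14.8% of all genes passed (8.1% rose and 6.68% fell). The list's median log2 fold change was -0.005, against -0.021 for all genes. Among genes known to respond to FoxO factors 6 rose and 3 fell of 15 tested, in the mTOR module 4 rose and 1 fell of 18, and among adaptors and receptor brakes 2 rose and 3 fell of 11. In the PI3 kinase group 1 rose and 2 fell of 6, among phosphatases 1 fell of 4, and 1 of 2 other FoxO factors fell. None of 6 ligands and binding proteins, of 6 genes of the Akt module or of 1 other receptor passed the test; in edgeR's fit 0, 1 and 0 of these had an unadjusted p under 0.05.

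The 12 called genes of smallest p included some of the steepest changes on the list. Sh2b2, an adaptor of the insulin receptor, was at 2.736, 1.534 and 1.84 CPM in mock and at 58.88, 63.75 and 67.44 CPM in morphine, a log2 fold change of 4.94 (SE 0.128, edgeR adjusted p = 1.29e-16). Gab1, a docking protein for PI3 kinase, was at 449.3, 443.7 and 490.5 CPM in mock and at 255.5, 258.6 and 258.5 CPM in morphine, and fell by 0.81 on the log2 scale (edgeR adjusted p = 2.21e-10). Both genes separated the groups with no overlap and in opposite directions. Pik3r3, a regulatory subunit of PI3 kinase, fell by 0.80, and Deptor, an inhibitor within mTOR complexes, fell by 1.01 on the log2 scale. The sestrins, which restrain mTORC1 under stress, rose by 1.10 (Sesn1) and 0.83 (Sesn2).

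The genes that respond to FoxO factors moved both ways. Pdk4, the kinase that turns off pyruvate dehydrogenase, rose from 11.6 ± 1.35 to 48.6 ± 3.41 CPM (SD, n = 3), a log2 change of 2.09. Klf15, a transcription factor of fasting metabolism, rose by 1.74 and Rbl2, a retinoblastoma-like protein, by 0.32 on the same scale. Fbxo32, the ubiquitin ligase atrogin-1, fell by 0.88, and Cdkn1b, the cell cycle inhibitor p27, fell by 0.33. Foxo6, a FoxO factor of low level here, fell by 1.65, from 4.59 ± 0.247 to 1.42 ± 0.462 CPM (SD, n = 3). Of the pathway genes named, exons of Gab1, Deptor, Fbxo32 and Rbl2 also overlap annotated genes on the other strand. Those of Pik3r3 overlap another gene on the same strand.

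**Figure D2:**
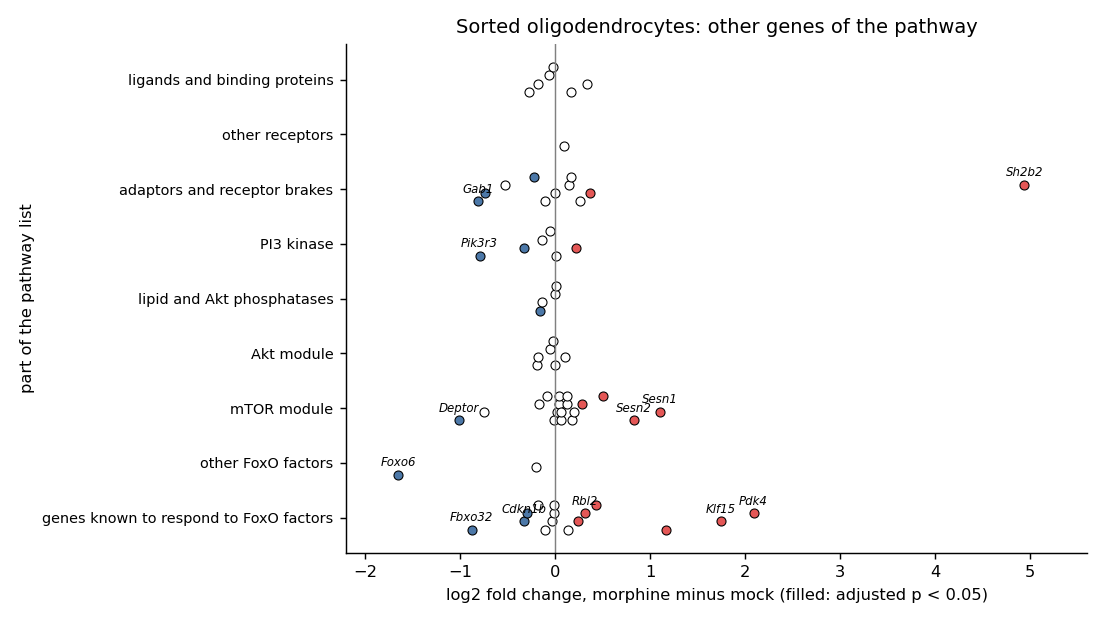
Log2 fold changes (morphine minus mock) in sorted oligodendrocytes of the 69 tested pathway genes, 1 point a gene, by part of the list; filled points passed adjusted p under 0.05 and the 12 of smallest p are named. Filled points lie on both sides of 0, from -1.65 for Foxo6 to 4.94 for Sh2b2.

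In the accumbens, 32533 cells were kept from 36000 barcodes, with a median of 2158 UMIs. Cells were clustered without the 10 genes and the pathway list, and 15 classes, each named for the cells its markers resemble, had enough cells to be tested as UMI sums per pool. Free RNA was not estimated, so the lowest levels below cannot be told apart from it. Levels of different genes are not ranked against each other here.

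The 2 receptors, the 2 FoxO factors and Cited2 ranked 12 to 15 of 15 by mean level in oligodendrocyte-like cells. Over the pools with at least 10 cells (6 to 8 a class), Insr averaged 26.6 ± 8.18 CPM (SD, n = 8) in oligodendrocyte-like cells, 102 ± 15.6 in endothelial-like cells and 154 ± 81.3 in perivascular macrophage-like cells, the last 2 not separated beyond their spread. The perivascular macrophage-like means here and below rested on few UMIs over 6 pools: 16 for Insr, 9 for Irs2 and 23 for Cited2. Igf1r averaged 231 ± 103 CPM in endothelial-like cells, above the next class, neuroblast-like cells at 69.8 ± 48.9, by more than either SD, and 12.7 ± 3.99 in oligodendrocyte-like cells. The lowest means of both receptors were in newly formed oligodendrocyte-like cells, at 18.7 and 7.20 CPM, not apart from those of oligodendrocyte-like cells beyond their spread.

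Irs1 was low everywhere, at most 18.1 ± 18.1 CPM in mural-like cells, and no UMI of it was found in microglia-like cells. Irs2 ran from 9.95 ± 5.68 CPM in endothelial-like cells to 80.6 ± 45.9 in perivascular macrophage-like cells, neither apart from its neighbour beyond the spread, with oligodendrocyte-like cells ranked 5 of 15 at 41.8 ± 14.0. Foxo1 was highest in both kinds of medium spiny neuron-like cells, the projection neurons of the striatum, at 146 ± 29.2 CPM for D2 and 139 ± 34.2 for D1, which did not differ beyond their spread. It averaged 113 ± 24.1 CPM in astrocyte-like cells, not apart from D1 neuron-like cells beyond the spread, and 27.7 ± 7.68 in oligodendrocyte-like cells. Foxo3 varied less, from 18.2 CPM in newly formed oligodendrocyte-like cells to 61.4 ± 21.4 in microglia-like cells, with no step between neighbouring classes larger than their spread.

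Pik3ip1 was highest in endothelial-like cells at 253 ± 57.6 CPM, then in astrocyte-like cells at 183 ± 45.5, and stood at 85.6 ± 10.2 in oligodendrocyte-like cells. Cited2 averaged 295 ± 94.7 CPM in neuroblast-like cells and 219 ± 111 in perivascular macrophage-like cells, the 2 highest means, and 11.3 ± 7.35 in newly formed oligodendrocyte-like cells and 10.9 ± 6.10 in oligodendrocyte-like cells, the 2 lowest. Neither pair was separated beyond its spread. Ddit4 was highest in newly formed oligodendrocyte-like cells at 321 ± 108 CPM, followed by endothelial-like cells at 226 ± 92.9 and oligodendrocyte-like cells at 182 ± 82.1, none of them apart from the next beyond its spread. The lowest Ddit4 mean, in interneuron-like cells at 31.5 ± 12.8 CPM, was not apart from that of excitatory neuron-like cells. Eif4ebp1 averaged 43.3 ± 39.4 CPM in dividing progenitor-like cells, not apart from the next class, and had no UMI in newly formed oligodendrocyte-like cells.

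**Figure D3:**
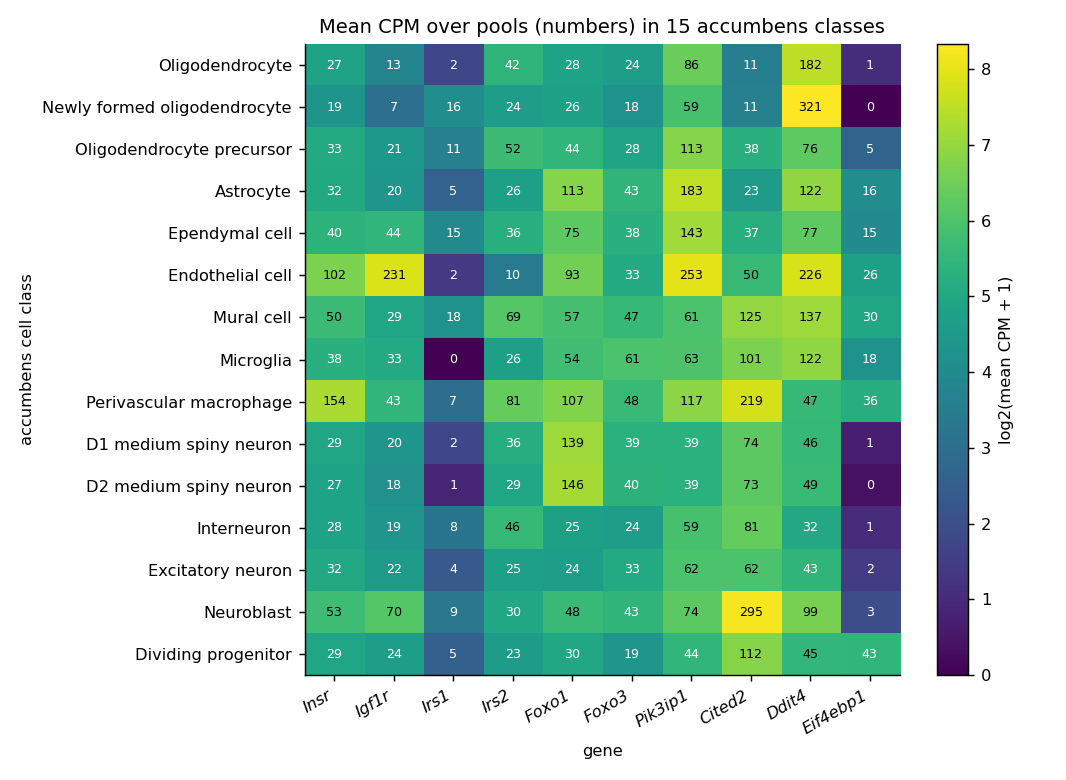
Mean CPM of summed UMIs over pools (numbers in the cells, colour as log2 of mean CPM + 1) for the 10 genes in 15 accumbens classes. Igf1r and Pik3ip1 are brightest in the endothelial row at 231 and 253 CPM, and Ddit4 in the newly formed oligodendrocyte row at 321 CPM.

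The genes with the most similar profile over the 15 classes, among 12599 with a mean of at least 5 CPM, were described by Pearson's r of log2(mean CPM + 1), since classes share libraries. For Insr they were Thbd (r = 0.930) and Slfn5 (0.930), and for Igf1r Ccm2l (0.932) and Degs2 (0.931). For Irs2 they were Msl3l2 (0.733) and Samd4 (0.717), for Foxo1 Pde7b (0.871) and Ido1 (0.833), and for Foxo3 Usp2 (0.812) and Cmya5 (0.812). For Pik3ip1 they were Maoa (0.904) and Lrrc8a (0.850), for Cited2 Mtf2 (0.903) and Epc2 (0.903), and for Ddit4 Car14 (0.885) and Sbds (0.843). Irs1 and Eif4ebp1 had too few UMIs for this comparison.

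Over the 15 classes, 75 of the 150 gene and class pairs had enough UMIs to be tested between morphine and mock, and none of the 75 was called by edgeR or by DESeq2. No gene of the 10 could be tested in perivascular macrophage-like cells, and Irs1 and Eif4ebp1 could be tested in 1 class each. All 10 were tested over all cells, and none was called there. Sums over all cells also move with the mix of classes in a pool, whose part in the all-cell results was not tested. In edgeR's fits 4 of the 75 pairs had an unadjusted p under 0.05. In oligodendrocyte-like cells (3565 cells, 188 to 837 a pool) 0 of 8 genes tested were called, against 0.106% of 8519 genes; 2 of the 8, and 433 of all genes, had an unadjusted edgeR p under 0.05. Over all cells 0% of 15026 genes were called. The mitochondrial share of UMIs was higher in every morphine pool than in every mock pool, at 5.62% ± 0.983 against 3.74% ± 0.678 over all cells (SD, n = 4) and 6.06% ± 1.19 against 3.74% ± 0.622 in oligodendrocyte-like cells. For each, the two-sided exact permutation p was 0.0286, the smallest that 4 against 4 allows. With mitochondrial genes left out, none of the 10 genes was called where it could be tested.

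In oligodendrocyte-like cells Ddit4 was at 112.1, 170.2, 142.7 and 115.2 CPM in mock pools 1 to 4 and at 320.6, 139.3, 302.3 and 155.8 CPM in morphine pools 1 to 4. Morphine pools 1 and 3 were above all mock pools, while morphine pools 2 and 4 lay inside the mock range. The log2 difference was 0.73 (SE 0.253, interval 0.19 to 1.26, unadjusted p = 0.0107 and adjusted p = 0.672 by edgeR's test). With same-numbered pools as a replicate block it was 0.61 (edgeR adjusted p = 0.125), and that fit called 119 genes in place of 9 but again 0 of the 10. Without a filter on low counts the Ddit4 call was gained (0.72, edgeR adjusted p = 0.0337). In edgeR's fits it was 0.46 (adjusted p = 1) without both replicate 1 pools, a comparison added after the files were seen.

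The tables of pools 1 and 3 hold 3000 barcodes each and those of pools 2 and 4 hold 6000, in both groups. Among the 13 classes with all pools present, Ddit4 in both 3000-barcode morphine pools was above both 6000-barcode morphine pools in 7 and below them in 1. In mock pools the counts were 2 and 0. Other genes split too, with 0 above and 6 below for Foxo1 in mock pools and 0 and 5 for Irs2 in morphine pools. The classes share the same pools, and the share of all genes that split in this way was not computed. In endothelial-like cells, for example, Ddit4 was at 414.8 and 288.9 CPM in morphine pools 1 and 3, at 125.9 and 169.5 CPM in pools 2 and 4, and between 147.3 and 240.9 CPM in mock. This split was looked at after the Ddit4 values were seen, and its part in the Ddit4 difference was not tested.

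**Figure D4:**
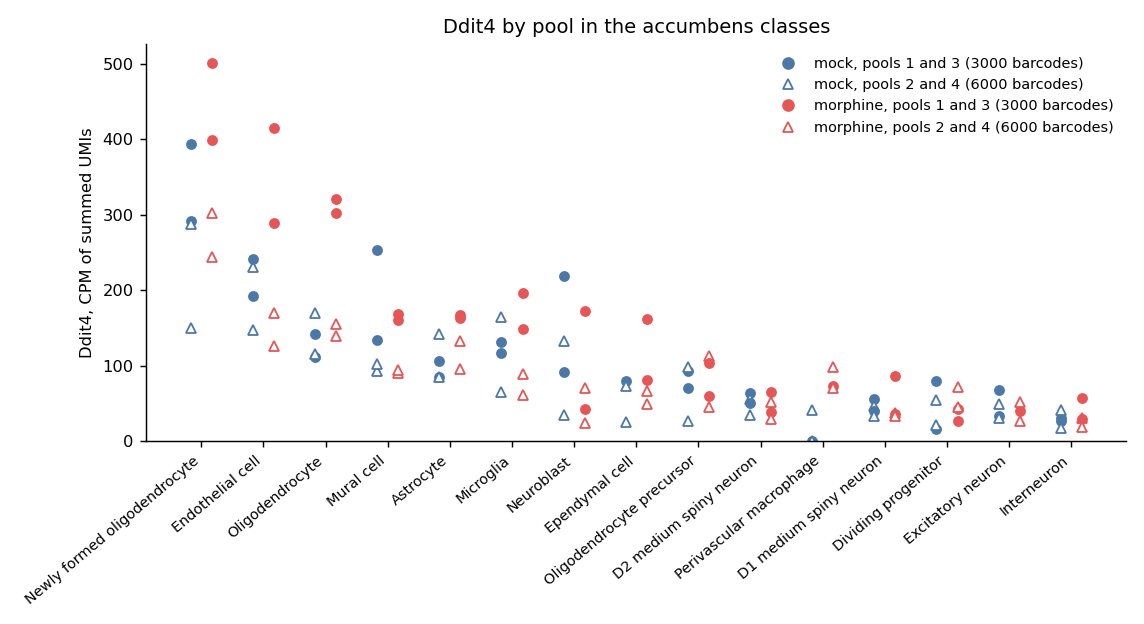
Ddit4 in CPM of summed UMIs in each pool and accumbens class, mock in blue and morphine in red; filled circles are the pools with 3000 barcodes and open triangles those with 6000. In oligodendrocyte-like cells the 2 filled morphine points lie at 302.3 and 320.6 CPM and the open ones at 139.3 and 155.8 CPM, within the mock range.

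Foxo3 in oligodendrocyte-like cells was at 15.74, 21.28, 18.22 and 20.34 CPM in mock and at 30.28, 28.65, 37.33 and 19.69 CPM in morphine. Only morphine pool 4 lay inside the mock range. The log2 difference was 0.56 (SE 0.261, unadjusted p = 0.0485 and adjusted p = 0.97 by edgeR's test) and rested on 190 UMIs. The 6 other genes tested there had log2 differences from -0.15 for Foxo1 to 0.34 for Insr, with intervals that held 0. Among them Igf1r, which fell in the sorted cells, had the opposite sign here, at 0.27 (unadjusted p = 0.437 by edgeR's test). It was higher in morphine in all 7 classes tested, which share pools, with 0 called. For Pik3ip1, which fell in the sorted cells, mock pools spanned 74.75 to 89.82 CPM and morphine pools 71.05 to 99.74 CPM, with an interval from -0.29 to 0.42. Irs1, with 23 UMIs, and Eif4ebp1, with 8, were not tested.

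**Figure D5:**
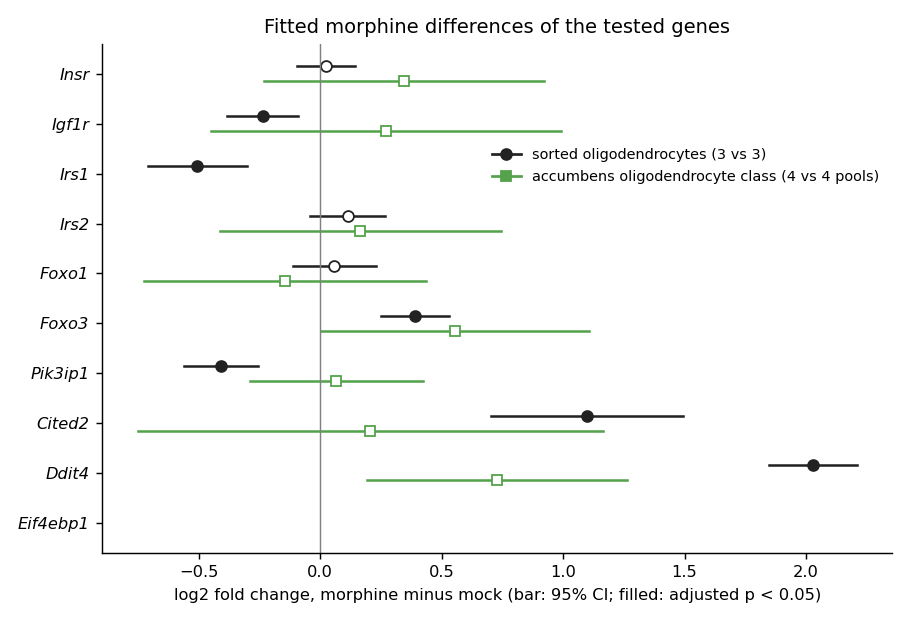
Log2 fold changes (morphine minus mock) with 95% confidence intervals for sorted oligodendrocytes (black circles, 3 against 3 libraries) and the accumbens oligodendrocyte class (green squares, 4 against 4 pools); filled symbols passed adjusted p under 0.05. The accumbens intervals are wider, and none of their symbols is filled.

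Outside oligodendrocyte-like cells, Pik3ip1 in microglia-like cells was at 51.09, 13.75, 35.11 and 49.57 CPM in mock and at 81.27, 69.7, 121.6 and 77.98 CPM in morphine. The pools did not overlap, on 96 UMIs in all, and the log2 difference was 1.10 (SE 0.389, unadjusted p = 0.0132 and adjusted p = 0.999 by edgeR's test). Pik3ip1 was picked here by its small p, and the share of all genes without overlap was not computed for this class. Cited2 in interneuron-like cells was at 51.1, 67.07, 60.45 and 86.48 CPM in mock and at 77.5, 87.72, 96.77 and 120.6 CPM in morphine. Its groups overlapped only at mock pool 4, with a log2 difference of 0.52 (unadjusted p = 0.023 and adjusted p = 1 by edgeR's test). Over all cells the Pik3ip1 pools did not overlap, with mock from 61.22 to 66.79 CPM and morphine from 66.98 to 70.71 CPM, as was so for 1.31% of all genes (edgeR adjusted p = 1).

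The morphine difference in oligodendrocyte-like cells was tested against that in 4 other classes of the same pools. For Ddit4 it was larger by 0.60 (SE 0.253) on the log2 scale than in D1 neuron-like cells, by 0.79 (SE 0.278) than in D2 neuron-like cells, by 0.45 (SE 0.194) than in endothelial-like cells and by 0.26 (SE 0.194) than in astrocyte-like cells. The unadjusted p-values of edgeR's test were 0.0302, 0.0116, 0.034 and 0.2, and the adjusted ones 0.999 or 1. None of the genes described was called where it could be tested in this way, in which 0.0126% to 0.0733% of all genes were; the only other unadjusted p under 0.05 was 0.0482, for Irs2 against D2 neuron-like cells, also by edgeR.

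The list of other pathway genes in oligodendrocyte-like cells had 52 tested and 0 called, with 3 at an unadjusted edgeR p under 0.05. These were Sh2b2, Pdk4 and Gab1. Sh2b2 was at 0, 10.96, 4.555 and 10.17 CPM in mock and at 35.62, 21.32, 25.29 and 25.96 CPM in morphine (log2 difference 1.74, edgeR adjusted p = 0.19). Pdk4 was at 9.835, 11.61, 1.518 and 6.779 CPM against 14.25, 21.32, 21.68 and 31.33 CPM (1.505, edgeR adjusted p = 0.254), and Gab1 at 74.75, 88.35, 109.3 and 70.33 CPM against 44.53, 61.97, 50.58 and 61.77 CPM (-0.62, edgeR adjusted p = 0.466). For each of the 3 the groups did not overlap, as for 3.58% of all genes tested, and the signs were those of the sorted cells. The 3 were picked by smallest p, which favours groups that do not overlap. Pdpk1, of the Akt module, also did not overlap (log2 difference 0.337), and its sign was the opposite in the sorted cells (-0.021). With same-numbered pools as blocks, an alternative chosen after the data were seen, 2 of the 52 were called, against 1.4% of all genes. They were Sh2b2 (log2 difference 1.71, edgeR adjusted p = 0.0198) and Pdk4 (1.54, edgeR adjusted p = 0.029); Gab1 was at -0.60 (edgeR adjusted p = 0.0868).

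Between pools of different age, with treatment in the fit, 0 of the 10 genes were called over all cells and 0 of the 8 tested in oligodendrocyte-like cells, where 0% of all genes were in both fits; over all cells 3 of the 10, and 10.7% of all 15724 genes, had an unadjusted p under 0.05 by edgeR's test. Igf1r had the smallest p, at 15.29 to 24.13 CPM in the younger pools and 27.16 to 36.33 CPM in the older ones (log2 difference 0.67, SE 0.166, unadjusted p = 0.00267 and adjusted p = 0.457 by edgeR's test). The ranges did not overlap, and the share of all genes for which this was so was not computed. Age and any batch that followed the pool numbers cannot be told apart. The mix of classes also differed between pools, with 9 to 562 excitatory neuron-like cells a pool, and its part in the Igf1r difference was not tested.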

How the data were processed

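The genes, the pathway list and the marker lists were chosen with earlier results of these data known. The deposited tables hold raw counts: UMI counts per gene and barcode from Drop-seq, and read counts per gene for the sorted cells. The sorted-cell columns could be tied to their group but not to a numbered sample, so their numbers pair nothing. The build mm10 and the tools STAR 2.4.2a, Trimmomatic 0.36, DESeq, DESeq2 and HTSeq are named per the submitters' processing notes, with no role for any. Per the file headers, the authors' deposited table gives log2 fold changes, their standard errors (held here as a score) and p-values. Reads assigned to no gene (69.5% to 74.3%) were left out, and strand of counting is not given in the sources used here.

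Symbols were brought to current names (1221 renamed, 384 merged); 6120 symbols found only in replicate 1 tables (0.777% of its UMIs) were left out. Of 35944 barcode sequences, 47 occurred in more than 1 pool. Barcodes with under 300 genes or over 20% mitochondrial UMIs were dropped, leaving 33216. Scrublet marked 683 as doublets (2.06%), but under 0.5% in 5 of 8 pools, where it did not work. Leiden clustering (scanpy 1.11.5, resolution 1, 30 components) gave 27 clusters; 5, with 2393 cells, stayed unnamed. Classes needed 10 cells in 3 pools of each group.

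edgeR 4.0.16 (TMM, filterByExpr, quasi-likelihood test, Benjamini-Hochberg over all genes tested) gave the main results, and DESeq2 1.42.0 under R 4.3.3 an alternative. On simulated data with known changes, 56.7%, 79.1% and 90.9% of genes changed 1.5-, 2- and 4-fold were recovered in the sorted-cell design, run on 15750 genes, and 20.9%, 55.2% and 92.4% in the oligodendrocyte class design, run on 8519 genes. The simulated counts took their spread from the trend over expression level. Spread particular to a gene or shared by same-numbered pools was left out. Deviations from the group means of same-numbered pools correlated at 0.268, 0.153, 0.3 and 0.411 in oligodendrocyte-like cells. The numbers were therefore read as pairs there, but only in the alternative fit with a replicate block. The main fits held no block. Over all cells these correlations were 0.446, -0.067, -0.046 and 0.697. Same-numbered pools also have the same ages in the labels. Exon lengths and positions are from GENCODE vM21. The text names all 10 genes and, from the pathway list, up to 12 called genes of smallest p, or the 3 of smallest p where fewer than 3 were called. p-values and intervals cover the spread between samples and counting error only.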

Additional observations from a re-analysis of the deposited data

Results flagged for a closer look

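Over all accumbens cells, Cited2 in morphine pool 1 was at 47.71 CPM, while the other 3 morphine pools lay at 72.63, 73.17 and 73.38 CPM; a single pool stood far below its group. Among the 36 groups of 4 pools examined this was the only one, where chance gives about 1 in 20. Whether the mix of classes in that pool had a part was not tested.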

How the results depend on the processing

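In sorted cells all counts stayed within 1.5 times the main ones under every setting run; leaving out a library gave 1761 to 2701 genes, 5 or 6 of the 10 genes and 18 to 24 pathway genes. The replicate block was not run there: No paired analysis was possible because the table's columns could be tied to a group but not to a numbered sample. Foxo1 ran from -0.0261 (without mock 2) to 0.1408. In oligodendrocyte-like cells the 9 genes called became 28 with DESeq2, 68 without a filter, 119 with the replicate block over same-numbered pools, 24 with age as a covariate, 2 in younger pools, 0 in older pools and 0 with classes from marker scores, and ranged from 0 to 9 with a pool left out (0 without mock 2, 5 without mock 3 and 4 without morphine 3). Of the 10 genes, 1 (Ddit4) was called without a filter, and of the pathway genes 2 were called with the replicate block, against 0. Log2 differences turned for Foxo1 (-0.2594 to 0.1365 with a pool left out, the latter without mock 2, and 0.0037 in older pools), Cited2 (-0.5419, without morphine 2, to 0.4403), Irs2 (-0.0078, without morphine 4, to 0.4643) and Pik3ip1 (-0.08 in older pools, -0.1091 with marker scores, -0.0265 without both replicate 1 pools). The cause was not tested. Ddit4 ran from 0.5338 to 0.9014 with a pool left out.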
